A study of Arabidopsis thaliana with 27 samples.

Results

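A set of 141 transcripts marked the Arabidopsis zygote 14 hours after pollination and stayed under 2 FPKM in the egg cell and in the zygote at 24 hours. FPKM, the deposited unit, scales the fragments of a transcript to its length and to the library's total. The members were chosen by these values in 3 of the 9 groups. A locus was taken when it had under 2 FPKM in all 3 egg cell libraries and all 3 libraries of zygotes at 24 hours, and at least 5 FPKM in all 3 libraries of zygotes at 14 hours. These loci made up 0.573% of the 24607 loci listed in at least 1 library. All 141 were protein coding, and 65 of them carried a symbol of their own in the RefSeq annotation.

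After fertilisation the egg cell of a flowering plant first rounds up, then elongates, and divides asymmetrically into a small apical and a large basal cell. The zygote starts with RNA stored in the egg cell and with a little RNA from the sperm cell, and its own genome is switched on within hours. Transcripts that plant cells are known to make rapidly and briefly include those of heat shock, wound and defence responses, of detoxifying enzymes and of some ubiquitin ligases.

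RNA was sequenced in 3 libraries for each of 9 groups of Arabidopsis thaliana. Groups of the accession Col were the mature egg cell (EC), zygotes at 14 hours (Zy14) and 24 hours (Zy24) after pollination, and embryos with 1 cell (1C) and 32 cells (32C). Hybrid zygotes came from Ler mothers with Col pollen, at 24 hours (LZy24) and 14 hours (LZy14), and from Col mothers with Ler pollen, at 24 hours (CZy24) and 14 hours (CZy14). No mutation, transgene or treatment is given in the labels, and plants grew in long days in a greenhouse. The labels do not say whether libraries of a group came from separate plants, so each p-value below measures only the spread between these libraries. In such pooled material, fewer cells of a type and less RNA per cell cannot be told apart.

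Each library listed 14902 to 20062 loci above 0, and 5 FPKM stood for about 56 to 115 fragments per kilobase. The summed level of 7 egg cell markers was 58300 to 107000 FPKM in EC and 8540 to 17100 in Zy14, and at most 73.5 in both 24 hour hybrids, Zy24 and the embryos. One library needs care: LZy14 replicate 3 lay between replicates 1 and 2 at 87.6% of the loci reaching 5 FPKM, against 5.49% to 62.0% for the 26 other libraries. It differed from a mixture of the other two, with weights of 0.55 and 0.46, by a median of 0.865 counting standard deviations, against 1.94 to 7.35 for the others. That is about the sampling noise, so replicate 3 may not be independent of the other libraries, although the labels list it as a sample of its own. The main counts of calls that rest on LZy14 are given with and without it, and other counts with all 3 libraries. CZy14 replicates 1 and 2 were also close, with a median difference of 1.94 counting standard deviations, while replicate 3 stood 6.64 and 6.75 away from them.

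The 250 bases before the annotated start of BETAG4, AT1G52560 and AT1G73610 are shown, because these 3 were among the 4 members with the highest Zy14 level. They were read from the RefSeq genome TAIR10.1, a minor update of the TAIR10 build named in the submitters' processing notes, with genes joined by locus tag. BETAG4 lies on the plus strand (chr5:6871261-6871510), AT1G52560 on the minus strand (chr1:19575867-19576116) and AT1G73610 on the plus strand (chr1:27678063-27678312). Each is written 5′ to 3′ on the gene's own strand, and capitals mark matches to 11 short motifs that plant transcription factors are known to bind.
BETAG4: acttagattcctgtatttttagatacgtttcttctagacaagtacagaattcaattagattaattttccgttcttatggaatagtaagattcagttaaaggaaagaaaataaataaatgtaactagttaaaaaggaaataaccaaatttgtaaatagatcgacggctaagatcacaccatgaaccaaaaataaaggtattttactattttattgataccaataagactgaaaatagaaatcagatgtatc
AT1G52560: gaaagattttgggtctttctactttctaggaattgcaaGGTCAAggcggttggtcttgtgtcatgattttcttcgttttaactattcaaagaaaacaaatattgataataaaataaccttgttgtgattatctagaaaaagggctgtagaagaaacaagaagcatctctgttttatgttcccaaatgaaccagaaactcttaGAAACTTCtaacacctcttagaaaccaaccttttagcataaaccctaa
AT1G73610: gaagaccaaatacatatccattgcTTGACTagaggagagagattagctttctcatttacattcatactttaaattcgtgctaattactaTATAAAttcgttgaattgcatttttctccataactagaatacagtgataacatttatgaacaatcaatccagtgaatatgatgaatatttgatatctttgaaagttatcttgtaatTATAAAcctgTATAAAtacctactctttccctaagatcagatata
BETAG4 held none of the 11 motifs. In AT1G52560 capitals mark GGTCAA, the reverse complement of the W-box core TTGACC that WRKY factors bind, and the heat shock element core GAANNTTC. In AT1G73610 they mark the W-box variant TTGACT and 3 copies of TATAAA.

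Over both strands of the same window, TTGACT was found in 40 of the 141 members (28.4%), against 19.4% of 23471 protein-coding loci and 18.2% of the 11068 with at least 5 FPKM in all Zy14 libraries. TTGACC was found in 15.6% of members against 12.5% of all promoters, GAANNTTC in 12.8% against 9.51%, and TATAAA in 54.6% against 47.0%. The G-box CACGTG was found in 6.38% of members against 6.89%, and the GCC-box GCCGCC in 1.42% against 1.87%. These shares describe letters in a window and were not tested.

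The genes themselves were short and simple. Of the members, 47 (33.3%) had an annotated transcript with a single exon. Such transcripts were annotated for 10.9% of the 11068 protein-coding loci with at least 5 FPKM in all Zy14 libraries, and 19.4% of all those listed. The median longest transcript was 1427 bases in members, against 1748 bases in the Zy14 loci and 1634 bases in all. Members sat on all 5 chromosomes, with 41 on chromosome 1 and 19 on chromosome 4. Some were neighbours of the same family: GSTU5, GSTU3 and GSTU1 on chromosome 2, UGT73B3 and UGT73B2 on chromosome 4, the alpha/beta hydrolases AT2G39400 and AT2G39420, and the alpha/beta hydrolases AT1G49640 and AT1G49650. Such near copies may share fragments, so the split of their values is uncertain.

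High members in Zy14 were annotated as enzymes and a chaperone. BETAG4, a beta-1,3-glucanase that cuts callose, had 251, 134 and 129 FPKM in Zy14. It was listed at 0 in every library of EC, Zy24, 1C and 32C. AT1G52560, an HSP20-like small chaperone, had 169.8, 17.0 and 257 FPKM in Zy14, and AT1G73610, a GDSL lipase, had 211, 111 and 118 FPKM in Zy14. CDR1, an aspartyl protease of disease resistance signalling, had 186, 118 and 124 FPKM in Zy14.

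Other members of this top group had roles in transcription, protein turnover and hormone synthesis. DAZ3, a C2H2 zinc finger factor known from sperm cells, had 134, 265 and 5.90 FPKM in Zy14 and was at 0 in all EC libraries. SK14, a SKP1-like subunit of ubiquitin ligases, had 112, 68.0 and 67.6 FPKM in Zy14. ACS6, an enzyme that makes the precursor of ethylene, had 66.0, 48.1 and 47.5 FPKM in Zy14. SK14 and ACS6 were alike in replicates 2 and 3 and higher in replicate 1, whereas DAZ3 was low in replicate 3. AT-HSFA7B, a heat shock transcription factor, had 76.2, 19.2 and 89.7 FPKM in Zy14, and SRO5, a relative of the stress protein RCD1, had 98.8, 38.4 and 98.2 FPKM in Zy14. AT2G39420, AT5G07330, AT2G43120, AT5G18340 and AT1G10880 were also among the 15 highest. Together the 15 highest members held 42.1%, 46.3% and 34.5% of the summed FPKM of the set in Zy14 replicates 1, 2 and 3.

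Over the whole set, Zy14 means ran from 6.01 to 307 FPKM with a median of 18.5, and 8 members averaged at least 100 while 75 stayed under 20. In EC, 109 members were listed at 0 in every library, and 97 were in Zy24, with 76 at 0 in both. The set summed to 3730 to 4980 FPKM in Zy14 libraries, 0.464% to 0.645% of all FPKM, against 9.85 to 28.0 in EC and 10.5 to 18.6 in Zy24. These values chose the members and are given as a description. Of the 11195 loci with at least 5 FPKM in all Zy14 libraries, 500 were under 2 FPKM in all EC libraries, and 238 of those 500 stayed at 5 FPKM or more in all Zy24 libraries.

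The Zy14 libraries were not alike, and 26 members varied more than 5-fold between them. Replicate 2 was the lowest for 73 members and replicate 3 the highest for 59. AT1G52560, AT5G07330 (annotated as an NFU1 iron-sulfur cluster protein, 166, 15.1 and 219 FPKM in Zy14) and AT-HSFA7B were low in replicate 2, while DAZ3 was low in replicate 3 and highest in replicate 2. A list of 13 heat shock genes that are not members summed to 4540, 1870 and 4910 FPKM in replicates 1, 2 and 3, and 7 egg cell markers to 8540, 17100 and 12900. Whether these shifts bear on membership was not tested. Without replicate 2, 276 loci met the rule, and without replicate 3, 217 did, each count including the 141 members by construction.

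The threshold cut through a continuum. Just inside on the Zy14 side, DXPS1 had a lowest library of 5.01 FPKM, the aquaporin PIP3 of 5.02 and AT1G56660 of 5.06, and just outside AT3G59680 had 4.85 and AT3G03270 and KCO2 4.81 each. On the EC and Zy24 side, HDG3 and AT5G56880 reached 1.99 and AT2G35760 1.98 FPKM, whereas HSFA3 at 2.04 and MYC2 and AT5G08240 at 2.09 missed it. MYC2, the main jasmonate transcription factor, and HSFA3, a heat shock factor, were therefore left out by 1 EC library each.

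**Figure D1:**
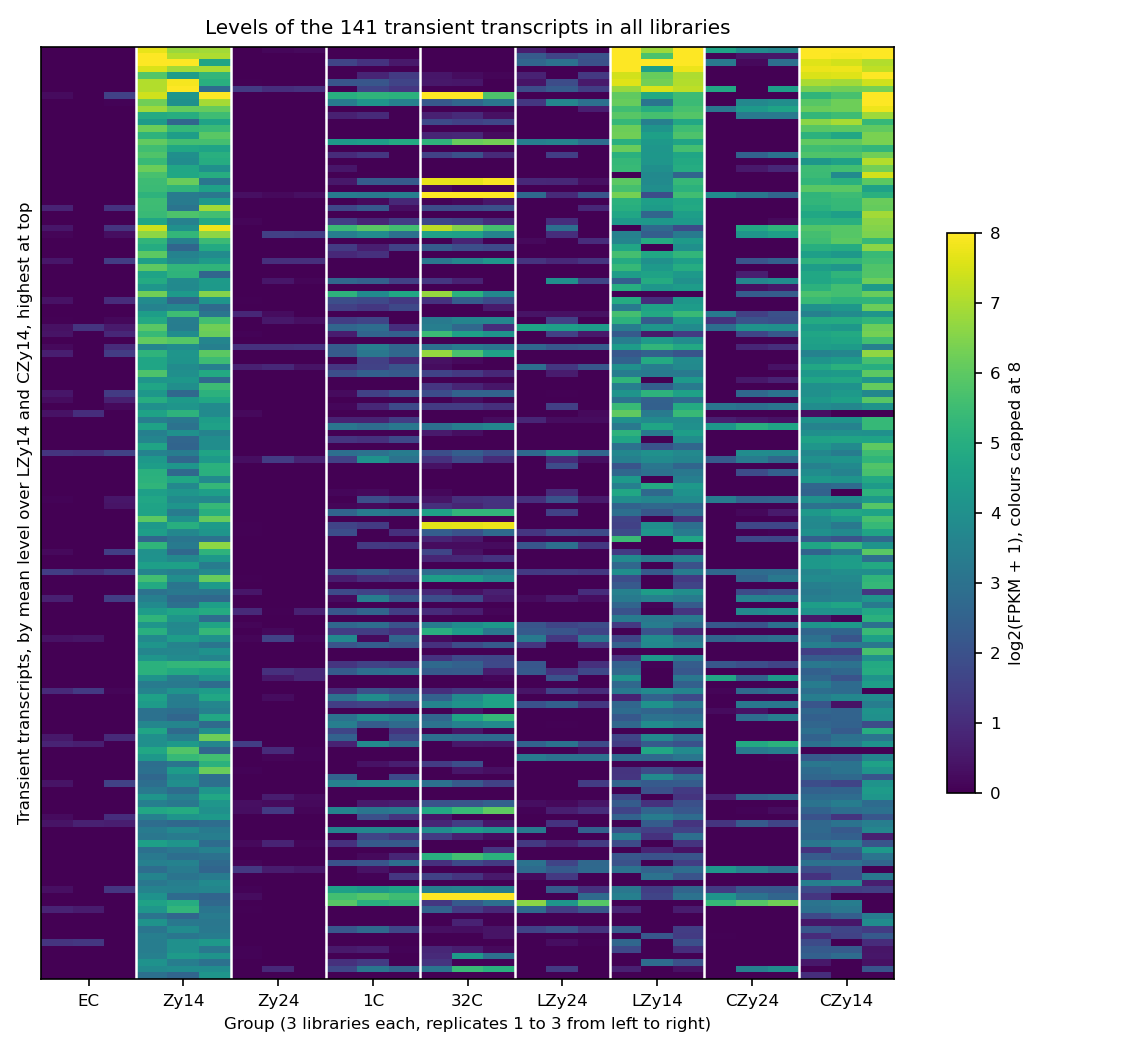
Levels of the 141 transcripts in all 27 libraries. Each row is a transcript, each column a library grouped by stage or cross, and colour gives log2(FPKM + 1), so Zy14, LZy14 and CZy14 stand out from the dark EC and Zy24 columns, and a few rows are bright again in 32C.

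By annotated family, glutathione and UDP-glucosyl transferases, which attach glutathione or glucose to toxic or hormone-like molecules, had 6 members of 103 listed loci (5.83%), against 0.573% of all loci. GSTU3 had 73.4, 25.7 and 15.1 FPKM in Zy14, GSTU5 had 46.4, 14.6 and 69.8 FPKM in Zy14, and UGT73B3 had 14.7, 9.79 and 74.7 FPKM in Zy14. F-box, U-box or RING ubiquitin ligases had 8 of 974 (0.821%) and kinases 6 of 1247 (0.481%), close to the share of all loci. Heat shock proteins and chaperones had 3 of 243 (1.23%), all of them HSP20-type. WRKY factors had 2 of 65 (3.08%), WRKY31 (22.1, 22.5 and 9.19 FPKM in Zy14) and WRKY18 (10.9, 10.5 and 11.4 FPKM in Zy14), and NAC factors 2 of 99, NAC100 and NAC004. MYB factors, MADS-box factors, jasmonate ZIM-domain proteins, secreted peptides and cyclins had none. These family sizes rest on words in the product descriptions, and 87 members fell in no family.

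In hybrid zygotes at 14 hours, which the rule did not use, more members were present with a Col mother than with a Ler mother. In LZy14, 57 of 141 members (40.4%) had at least 5 FPKM in all 3 libraries, or 58 in replicates 1 and 2 alone, and 15 were under 2 FPKM in all. In CZy14, 94 (66.7%) had at least 5 FPKM in all libraries and 5 were under 2 FPKM. Of all 11195 loci with at least 5 FPKM in all Zy14 libraries, 88.7% did so in LZy14 and 91.0% in CZy14. Both crosses shared 49 members at this level, 45 passed it in CZy14 but not LZy14, 8 in LZy14 but not CZy14, and 39 in neither. The median ratio of the hybrid mean to the Zy14 mean was 0.46 in LZy14, or 0.463 without replicate 3, and 0.903 in CZy14. Members were chosen by their Zy14, EC and Zy24 values, which can favour ratios under 1 and lower shares than in all Zy14 loci. Zy14 also shares its Col mother with CZy14 and not with LZy14, which can favour presence in CZy14. The size of either was not tested.

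At 24 hours the hybrids, like Zy24, held little of the set. In LZy24, 106 members (75.2%) were under 2 FPKM in all libraries, against 39.0% of all loci, and 5 had at least 5 FPKM in all. In CZy24, 94 (66.7%) were under 2 FPKM, against 41.8% of all loci, and 10 had at least 5 FPKM. The set summed to 193 to 253 FPKM in LZy24 and 2120 to 4410 in LZy14, and to 260 to 541 in CZy24 and 3980 to 6690 in CZy14. CZy14 replicate 3 had the highest sum and the highest value of 95 of the 140 members seen in that group.

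**Figure D2:**
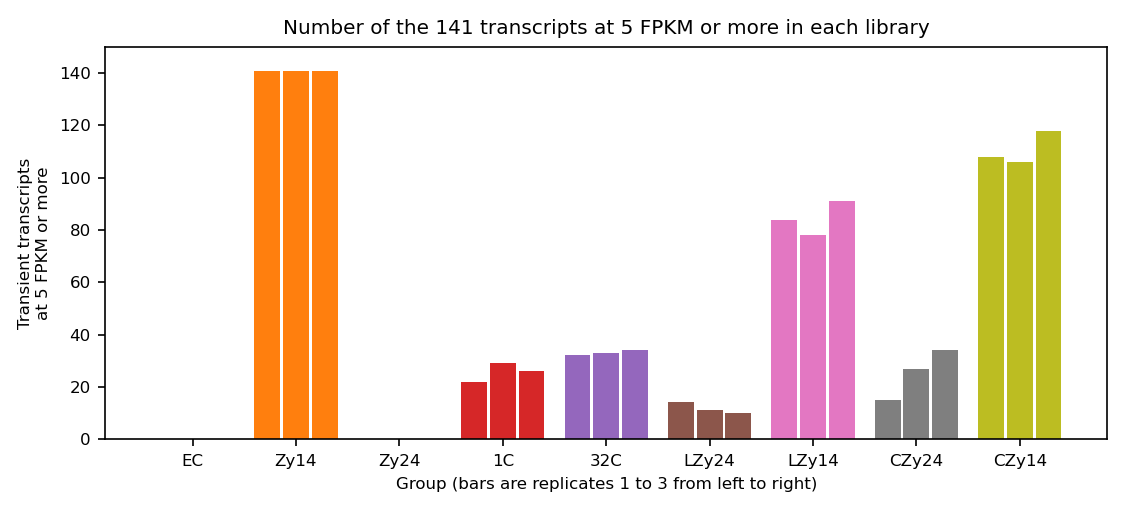
Number of the 141 transcripts with at least 5 FPKM in each library, 1 bar per library, by group. Zy14 is at 141 and EC and Zy24 at 0 by the rule, while the other groups were not used by it, with 78 to 91 in LZy14 and 106 to 118 in CZy14 against 10 to 14 in LZy24 and 15 to 34 in CZy24.

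The time change within each cross was tested in the 18 libraries outside the rule. limma was fitted on log2(FPKM + 1) across 19037 loci with at least 1 FPKM in 3 libraries, and a locus was called at an adjusted p under 0.05 with an absolute log2 change of at least 1. Of the members, 138 passed this filter and 3 (AT5G11130, RWP1 and AT4G12500) did not, and 57 passed only through the 14 hour hybrids, where they had to be higher. In LZy24 against LZy14, 98 members fell and 4 rose, against 20.3% and 18.4% of all loci tested. Scaling libraries to equal FPKM sums moved the median of all loci from -0.005 to -0.19 and the higher share of all calls from 47.6% to 37.5%, with 100 members lower and 3 higher. Without LZy14 replicate 3, 86 fell and 3 rose, against 17.5% and 17.6%. In CZy24 against CZy14, 115 fell and 4 rose, against 25.4% and 19.9%. Among the 81 members that passed the filter without the 14 hour hybrids, 52 fell in LZy, or 48 without LZy14 replicate 3, and 63 in CZy, against 17.3%, 15.4% and 21.7% of the 17381 such loci. Falls passed the test in both crosses for 85 of the 138 members, against 11.4% of all loci tested, and for 79 without LZy14 replicate 3, against 10.3%. Among the 81, they did for 44, against 9.07% of such loci, and for 43 without that library, against 8.32%. Of the 138, 13 passed in LZy alone, 30 in CZy alone and 10 in neither, or 7, 36 and 15 of 137 without LZy14 replicate 3.

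Hydrolases and a protease were among the largest falls in the Ler-mother cross. AT1G73610, the GDSL lipase, had 0.57, 0 and 0 FPKM in LZy24, against 473, 113 and 316 FPKM in LZy14 (log2 change -7.79 ± 0.44 SE, adjusted p = 6.63e-10). In the Col-mother cross it kept 24.0, 13.5 and 11.2 FPKM in CZy24, against 566, 660.2 and 288 FPKM in CZy14. The libraries of each cross did not overlap between hours. CDR1 was listed at 0 in all LZy24 libraries, against 383, 22.1 and 216 FPKM in LZy14 (log2 change -6.96 ± 0.66 SE, adjusted p = 2.36e-07), where replicate 2 was far below the others. The alpha/beta hydrolases AT2G39400 (log2 change -6.17 ± 0.41 SE, adjusted p = 4.12e-09) and AT2G39420 (log2 change -6.06 ± 0.39 SE, adjusted p = 2.6e-09) fell as well.

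In the Col-mother cross BETAG4 had 0.07, 0.37 and 0.39 FPKM in CZy24, against 265, 240.1 and 371 FPKM in CZy14 (log2 change -7.83 ± 0.57 SE, adjusted p = 1.01e-08). Its level in the Ler-mother cross was 3.93, 2.13 and 3.12 FPKM in LZy24, against 559.9, 52.3 and 332 FPKM in LZy14. AT2G39400 was listed at 0 FPKM in all 3 libraries of CZy24, against 188, 196 and 285 FPKM in CZy14 (log2 change -7.78 ± 0.41 SE, adjusted p = 2.47e-10). The neighbour AT2G39420 fell too (log2 change -7.10 ± 0.39 SE, adjusted p = 3.64e-10), as did CDR1 (log2 change -7.60 ± 0.66 SE, adjusted p = 7.06e-08). AT1G52560, the small chaperone, was at 0 in all 3 CZy24 libraries, against 36.4, 49.9 and 378 FPKM in CZy14 (log2 change -6.49 ± 0.73 SE, adjusted p = 1.31e-06), with replicate 3 far above replicates 1 and 2.

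A few members went the other way. GAT1_2.1, annotated as a class I glutamine amidotransferase, rose in both crosses, and its libraries did not overlap between hours. It had 96.2, 17.4 and 58.0 FPKM in LZy24, against 0 FPKM in all 3 libraries of LZy14 (log2 change 5.56 ± 0.74 SE, adjusted p = 9.68e-06). In the other cross it had 40.3, 58.2 and 76.3 FPKM in CZy24, against 7.40, 9.59 and 0 FPKM in CZy14 (log2 change 3.68 ± 0.74 SE, adjusted p = 0.000429). PIP3, an aquaporin, rose in CZy with 16.8, 7.19 and 5.14 FPKM in CZy24, against 1.36, 0 and 0 FPKM in CZy14 (log2 change 2.86 ± 0.65 SE, adjusted p = 0.00122), as did the F-box gene AT3G19890 (log2 change 2.26 ± 0.45 SE, adjusted p = 0.00039) and the phosphodiesterase-like AT3G19310 (log2 change 2.26 ± 0.94 SE, adjusted p = 0.0483), whose call was lost when no other groups were fitted. In LZy, AT1G69660, a TRAF-like gene, had 3.44, 6.66 and 1.45 FPKM in LZy24, against 0 FPKM in all 3 libraries of LZy14 (log2 change 2.13 ± 0.41 SE, adjusted p = 0.000374), and AT1G74940 and AT1G49650 rose by 1.66 and 1.32 on the log2 scale. The AT1G74940 call was lost without LZy14 replicate 3 (adjusted p = 0.0685), and the AT1G49650 call when no other groups were fitted (adjusted p = 0.101). Most of these genes fell in the other cross. AT1G69660, AT1G49650 and AT1G74940 fell by 4.69, 2.89 and 2.04 on the log2 scale in CZy, where the AT1G74940 call was lost when no other groups were fitted. AT3G19310 and PIP3 fell by 2.75 and 1.78 on the log2 scale in LZy, and both calls were lost without LZy14 replicate 3 (adjusted p = 0.0913 and 0.0889) and when no other groups were fitted.

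**Figure D3:**
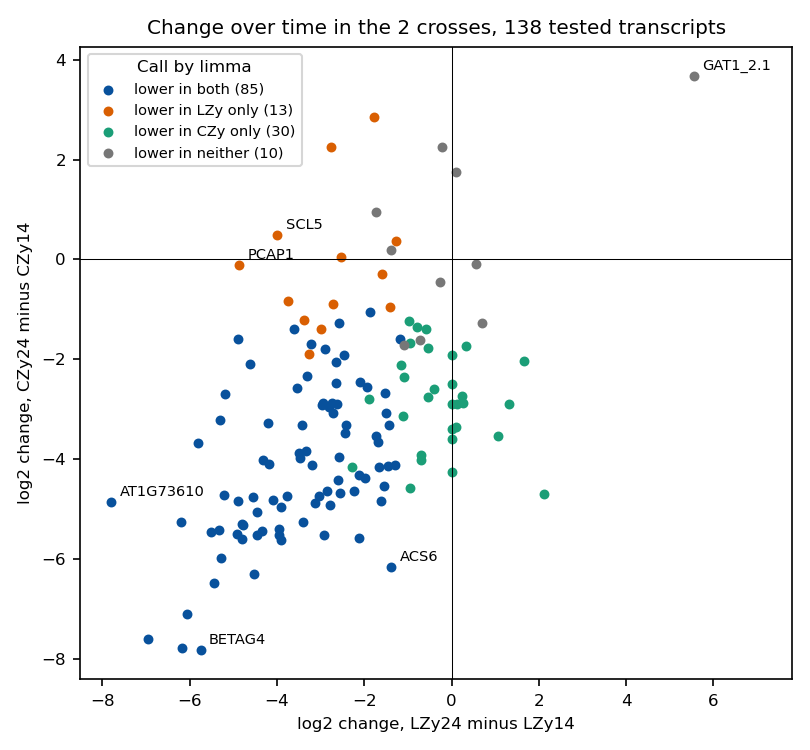
Log2 change over time of the 138 tested transcripts, with LZy24 minus LZy14 on the horizontal axis and CZy24 minus CZy14 on the vertical axis. Colours give the limma call for a fall, and most points lie below and left of 0, with GAT1_2.1 at 5.56 and 3.68 in the opposite corner.

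A smaller group was high at 14 hours and low at 24 hours in all 3 kinds of zygote. Both 14 hour hybrids had at least 5 FPKM, and both 24 hour hybrids under 2 FPKM, in all libraries for 27 members, and also for 27 without LZy14 replicate 3. They included AT1G52560, CDR1, GSTU3 and AT2G39400, named above. NAC100, a NAC-domain transcription factor, had 40.4, 19.1 and 29.8 FPKM in LZy14 and 21.1, 17.6 and 55.0 FPKM in CZy14, and was at 0 in every library of LZy24, CZy24, 1C and 32C. ARL, an ARGOS-like protein, had 76.0, 22.3 and 53.1 FPKM in LZy14 and 34.3, 26.6 and 83.8 FPKM in CZy14. AOX1D, an alternative oxidase of mitochondria, had 39.3, 17.6 and 28.1 FPKM in LZy14 and 17.8, 22.8 and 133 FPKM in CZy14, with CZy14 replicate 3 standing apart. CBL6, a calcineurin B-like calcium sensor, had 39.2, 9.84 and 26.9 FPKM in LZy14 and 96.2, 124 and 39.0 FPKM in CZy14. In 20 of the 27, all 1C and 32C libraries were under 2 FPKM too.

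The same rule with LZy14 and LZy24 in place of the Col zygotes found 132 loci, of which 43 were members, 32.6% of those loci and 30.5% of the members, and without LZy14 replicate 3 it found 134, of which 44 were members. With CZy14 and CZy24 it found 257 loci, of which 60 were members, 23.3% of those loci and 42.6% of the members. All 3 rules share the EC libraries.

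Between the crosses at 14 hours, more members were lower than higher with a Ler mother. In LZy14 against CZy14, 46 members were lower and 5 higher, against 9.7% and 6.17% of all loci tested. Without LZy14 replicate 3, 40 were lower and 1 higher, against 7.68% and 4.01%, and 40 of the 51 calls were kept. When no other groups were fitted the counts were 19 and 3. With quantile normalization they were 42 and 10. Of the tested members, 19 passed the filter only through CZy14, which favours a lower call, and 6 only through LZy14, which favours a higher one. Zy14, which chose the members, has a Col mother as CZy14 does, so the rule itself can favour lower calls in LZy14. The shares of all loci carry no such choice, and its size was not tested. Among the 81 members that passed without the 14 hour hybrids, 24 were lower and 3 higher, against 7.97% and 5.7% of such loci, and 21 and 1 without LZy14 replicate 3, against 6% and 3.81%.

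The lower members included stress regulators. AT-HSFA7B was listed at 0 in all LZy14 libraries, against 51.2, 46.9 and 69.9 FPKM in CZy14 (log2 change -5.81 ± 0.65 SE, adjusted p = 1.04e-05). PUB23, a U-box ubiquitin ligase that dampens immune and drought responses, had 2.15, 0 and 1.28 FPKM in LZy14, against 13.3, 17.5 and 49.7 FPKM in CZy14 (log2 change -3.62 ± 0.41 SE, adjusted p = 1.32e-05). The libraries of the crosses did not overlap for either gene. AT1G69660 was at 0 in all LZy14 libraries, against 25.1, 36.3 and 16.8 FPKM in CZy14 (log2 change -4.69 ± 0.41 SE, adjusted p = 9.76e-07). AT5G07330 had 0, 5.66 and 2.44 FPKM in LZy14, against 56.1, 58.9 and 91.2 FPKM in CZy14 (log2 change -4.58 ± 1.09 SE, adjusted p = 0.00613), and AT1G13360, of unknown function, differed by less (log2 change -3.91 ± 0.68 SE, adjusted p = 0.00059). All 5 kept their calls without LZy14 replicate 3. The 13 heat shock list genes, none a member, summed to 1490, 2330 and 1850 FPKM in LZy14 and 2810, 3230 and 6860 in CZy14 replicates 1 to 3. The part of those levels in the members' difference was not tested. Of these 13 genes, 1 was called lower and 0 higher, where 9.7% of all loci were lower and 6.17% higher. Of 33 rapid stress and wound response genes tested, 8 were lower and 1 higher, and of 18 jasmonate genes 3 were lower and 2 higher. Of 20 DNA replication genes 3 were lower and 9 higher, and of 22 zygote and embryo regulators 1 was lower and 0 higher.

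PCAP1, a plasma membrane protein that binds calcium and phosphoinositides, was higher with a Ler mother. It had 65.5, 9.12 and 41.1 FPKM in LZy14, against 0.26, 0 and 0 FPKM in CZy14 (log2 change 4.82 ± 0.45 SE, adjusted p = 1.87e-06), and Zy14, with a Col mother as well, had 23.7, 35.1 and 13.3 FPKM. The crosses did not overlap, but without LZy14 replicate 3 only 2 libraries reached 1 FPKM and PCAP1 was not tested. AT4G14315, of unknown function, had 47.5, 27.2 and 41.3 FPKM in LZy14, against 10.5, 13.4 and 16.9 FPKM in CZy14 (log2 change 1.43 ± 0.37 SE, adjusted p = 0.0104), and without LZy14 replicate 3 its change was 1.37 with adjusted p = 0.0435. Calls for AT3G19310, PIP3 and AT3G19890 were lost without that library, with adjusted p of 0.143, 0.0656 and 0.0643. The AT4G14315 call was lost when CZy14 replicates 1 and 2 were also averaged.

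**Figure D4:**
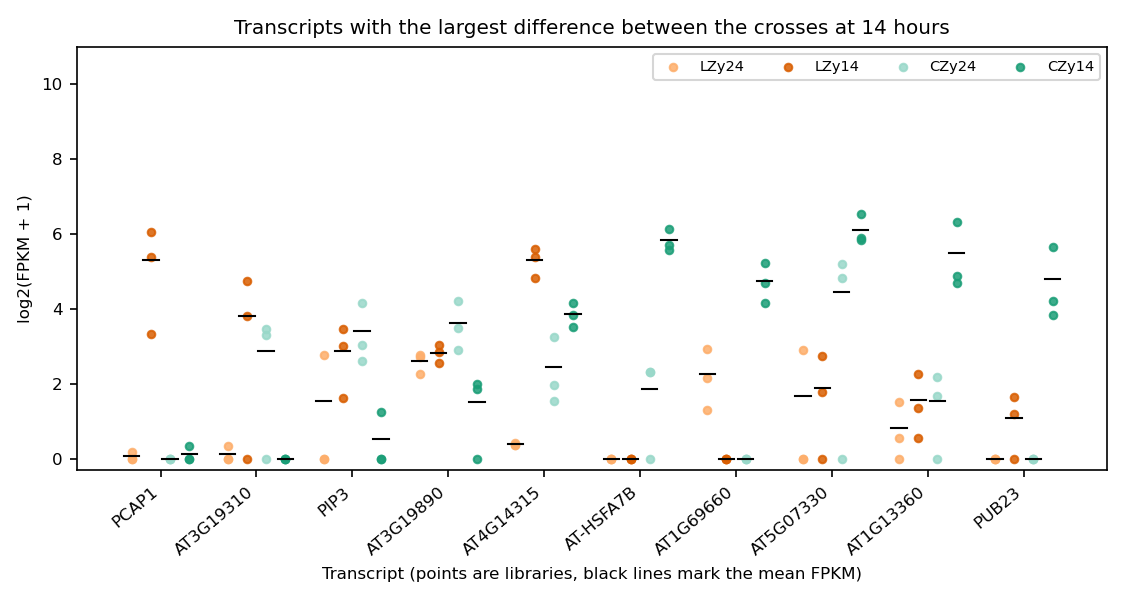
Levels of the 5 transcripts called higher and the 5 with the largest lower difference in LZy14 against CZy14, as log2(FPKM + 1) in LZy24, LZy14, CZy24 and CZy14. Points are libraries and black lines mark the mean FPKM, and AT-HSFA7B is at 0 in LZy14 but at 46.9 to 69.9 FPKM in CZy14.

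At 24 hours the crosses differed in both directions. In LZy24 against CZy24, 12 of the 138 tested members were higher and 19 lower, against 13.2% and 13.1% of all loci tested. Of these 138, 57 passed the filter only through the 14 hour hybrids and could hardly be called here. When no other groups were fitted, 12 of 47 tested members were higher and 11 lower, against 2125 and 2156 of 15206 loci. ACS6 had 10, 10.9 and 6.26 FPKM in LZy24, against 0 FPKM in all 3 libraries of CZy24 (log2 change 3.30 ± 0.30 SE, adjusted p = 9.51e-07). MIOX1, myo-inositol oxygenase, had 9.10, 7.0 and 6.96 FPKM in LZy24, against 0, 0 and 0.05 FPKM in CZy24 (log2 change 3.09 ± 0.31 SE, adjusted p = 2.25e-06). SCL5, a GRAS-family regulator, was at 0 in all LZy24 libraries, against 17.9, 31.7 and 24.9 FPKM in CZy24 (log2 change -4.66 ± 0.45 SE, adjusted p = 1.61e-06). SK14 had 0, 0 and 0.61 FPKM in LZy24, against 7.99, 18.7 and 24.2 FPKM in CZy24 (log2 change -3.81 ± 0.43 SE, adjusted p = 7.25e-06), and AT1G73610 and GH9B6, an endoglucanase, were lower in LZy24 by log2 changes of -3.82 and -3.23. SRO2, a relative of SRO5, was at 0 in all LZy24 libraries, against 0, 12.6 and 14.5 FPKM in CZy24 (log2 change -2.57 ± 0.77 SE, adjusted p = 0.0157), so the groups overlapped at 0, and its call was lost when no other groups were fitted.

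The difference between the crosses itself changed over time for 49 members. The change, LZy24 minus LZy14 less CZy24 minus CZy14, was higher for 38 and lower for 11, against 16% and 12.5% of all loci tested, and for 34 and 7 without LZy14 replicate 3, against 13.9% and 10.2%. Of the 38, 24 were under 2 FPKM in every 24 hour hybrid library, and 26 were called between the crosses at 14 hours and not at 24 hours. Passing the filter only through CZy14 favours a higher change, and so can the choice of members by Zy14, which shares its Col mother with CZy14. Among the 81 that passed without the 14 hour hybrids, 19 were higher and 9 lower, against 15% and 12.8% of such loci, and 18 and 6 without LZy14 replicate 3, against 12.9% and 10.6%. Among the 67 that passed in the embryo libraries alone, 16 were higher and 5 lower, against 14.7% and 12.1%, and 15 and 2 without LZy14 replicate 3, against 12.7% and 9.97%. ACS6 was lower with a Ler mother at the earlier hour, in contrast to 24 hours, with 32.3, 18.6 and 24.6 FPKM in LZy14, against 65.1, 64.9 and 82.8 FPKM in CZy14 at 14 hours (change of the log2 difference 4.78 ± 0.42 SE, adjusted p = 1.3e-06). SYTD, a synaptotagmin-like membrane protein, had 3.82, 3.34 and 2.11 FPKM in LZy24, against 0, 3.16 and 0.73 FPKM in LZy14, and 0 FPKM in all 3 libraries of CZy24, against 5.04, 5.01 and 41.7 FPKM in CZy14 (change of the log2 difference 4.59 ± 0.94 SE, adjusted p = 0.00156). SCL5 went the other way, with 8.48, 25.3 and 15.1 FPKM in LZy14, against 10.9, 10.7 and 40.3 FPKM in CZy14 (change of the log2 difference -4.48 ± 0.63 SE, adjusted p = 8.11e-05).

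In each embryo stage most members were low. In 32C, 85 members (60.3%) were under 2 FPKM in all libraries and 29 (20.6%) had at least 5 FPKM in all. In 1C, 80 (56.7%) and 17 (12.1%) did. Of all loci, 37.2% in 32C and 38.3% in 1C were under 2 FPKM, and 49.8% and 46.3% had at least 5 FPKM. Both stages were under 2 FPKM for 65 members (46.1%), against 7998 of all 24607 loci, and 12 members had at least 5 FPKM in both. The set summed to 1950 to 2460 FPKM in 32C and 480 to 546 in 1C. The mean in 32C was above the Zy14 mean for 15 members, and the mean in 1C was for 5. In 32C against 1C, 20 of the 138 tested members rose and 7 fell, against 12.6% and 8.56% of all loci tested. Of these 138, 57 passed the filter only through the 14 hour hybrids and could hardly be called here. With quantile normalization 19 rose and 11 fell, so the higher share of member calls was 63.3% in place of 74.1%. Over all loci that share was 50.6% in place of 59.6%. When only 32C and 1C were fitted, 22 of 67 tested members rose and 13 fell, against 2576 and 1813 of 16211 loci.

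Some of the members that rose in 32C reached high levels there. PIP3 had 491, 629 and 492 FPKM in 32C, against 46.5, 56.4 and 44.7 FPKM in 1C (log2 change 3.42 ± 0.65 SE, adjusted p = 0.000661), while Zy14 had 16.0, 5.99 and 5.02 FPKM. FDH, the mitochondrial formate dehydrogenase, had 339, 300.0 and 288 FPKM in 32C, against 9.35, 8.33 and 9.76 FPKM in 1C (log2 change 4.93 ± 0.77 SE, adjusted p = 0.000107). AT1G04880, a DNA-binding protein with ARID and HMG-box domains, had 209, 207 and 239 FPKM in 32C, against 0.44, 4.03 and 3.95 FPKM in 1C (log2 change 6.05 ± 0.50 SE, adjusted p = 8.75e-08). Libraries of 32C and 1C did not overlap for any of these. AT5G02540, a Rossmann-fold dehydrogenase, had 200.4, 205 and 217 FPKM in 32C, against 2.09, 1.60 and 0 FPKM in 1C (log2 change 6.70 ± 0.64 SE, adjusted p = 4.52e-07). NET4B, a member of the actin-binding NET family, had 32.4, 47.3 and 33.6 FPKM in 32C, against 0, 0.15 and 0.79 FPKM in 1C (log2 change 4.91 ± 0.31 SE, adjusted p = 2.52e-09), and the lectin receptor kinase gene AT1G61550 rose as well (log2 change 3.68 ± 0.48 SE, adjusted p = 1.65e-05).

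AT1G52560 and AT-HSFA7B were among the 5 highest members in 1C and varied within 32C. AT1G52560 had 419, 292 and 53.3 FPKM in 32C, against 31.5, 36.1 and 33.1 FPKM in 1C, and AT-HSFA7B had 105, 32.7 and 12.3 FPKM in 32C, against 34.7, 13.1 and 26.4 FPKM in 1C. The 13 heat shock list genes summed to 6020, 4210 and 1550 FPKM in 32C replicates 1, 2 and 3, in the same order as AT1G52560, and their part in it was not tested. GAT1_2.1 fell, with 1.45, 3.83 and 6.71 FPKM in 32C, against 59.8, 31.9 and 36.8 FPKM in 1C (log2 change -3.23 ± 0.74 SE, adjusted p = 0.00299). The TRAF-like AT3G58340, the ubiquitin ligase ARI16, AT2G39420 and the plastid RNA-binding CSP41A fell by 1.89, 1.83, 1.64 and 1.59 on the log2 scale, with CSP41A losing its call when only 1C and 32C were fitted (adjusted p = 0.0545). AT5G07330 had 147, 89.7 and 47.9 FPKM in 32C, against 43.0, 61.4 and 47.3 FPKM in 1C, where the lowest 32C library overlapped the 1C range.

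**Figure D5:**
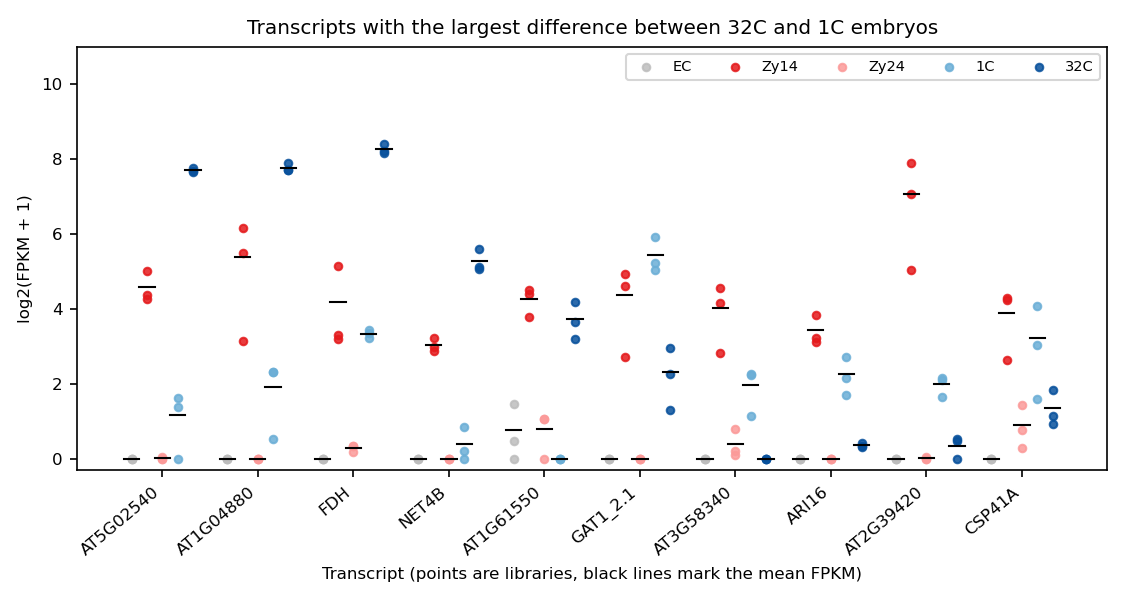
Levels of the transcripts with the largest difference between 32C and 1C embryos, 5 higher and 5 lower, as log2(FPKM + 1) in EC, Zy14, Zy24, 1C and 32C. Points are libraries and black lines mark the mean FPKM, and AT5G02540 sits at 200.4 to 217 FPKM in 32C against 0 to 2.09 FPKM in 1C.

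Gene lists of stress and hormone responses were followed beside the set. In Col, the rapid stress and wound list summed to 386 to 679 FPKM in EC and 1500 to 2260 in Zy14. It still summed to 1140 to 1500 FPKM in Zy24. The jasmonate list summed to 353 to 386 FPKM in EC, 375 to 456 in Zy14 and 140 to 197 in Zy24. The heat shock list summed to 573 to 975 FPKM in EC, 1870 to 4910 in Zy14 and 650 to 930 in Zy24. Of 13 heat shock genes tested, 12 fell in LZy24 against LZy14 and 10 in CZy24 against CZy14, with median log2 changes of -3.47 and -3.12, where 20.3% and 25.4% of all loci fell, and none was a member. Of 33 rapid stress and wound response genes tested, 21 fell and 1 rose in LZy, and 18 fell in CZy, where none rose. The ubiquitin ligase gene PUB22 of this list fell by 2.47 and 4.99 on the log2 scale in LZy and CZy. In 32C against 1C, 16 genes of this list rose and 1 fell, where 12.6% of all loci rose and 8.56% fell. Of 18 jasmonate genes tested, 9 fell and 2 rose in LZy and 8 fell and 2 rose in CZy. Of 20 DNA replication genes, 5 rose and 4 fell in LZy and 12 rose and 1 fell in CZy, and of 22 tested zygote and embryo regulators 6 rose and 5 fell in LZy and 5 rose and 2 fell in CZy. Of all loci tested, 18.4% rose in LZy and 19.9% in CZy. Without LZy14 replicate 3, 11 heat shock, 16 stress, 7 jasmonate, 3 DNA replication and 5 regulator genes fell in LZy, and 0, 1, 1, 5 and 6 rose, against 17.5% of all loci lower and 17.6% higher. Over all loci the median log2 change was -0.005 in LZy and -0.064 in CZy.

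Members on these lists were WRKY18 and PUB23 (stress) and CYP94B3, which breaks down active jasmonate. CYP94B3 was at 0 in all libraries of EC, Zy24, 1C and 32C, and had 8.49, 6.13 and 17.4 FPKM in Zy14. It had 0 FPKM in all 3 libraries of CZy24, against 4.54, 4.93 and 19.9 FPKM in CZy14, and fell (log2 change -3.14 ± 0.46 SE, adjusted p = 2.23e-05). WRKY18 had 9.62, 10.4 and 9.53 FPKM in 32C and 22.1, 18.3 and 23.7 FPKM in 1C, and in LZy fell with 0, 3.93 and 1.22 FPKM in LZy24, against 8.01, 1.77 and 5.10 FPKM in LZy14 (log2 change -1.27 ± 0.49 SE, adjusted p = 0.0409), a call that was lost without LZy14 replicate 3 (adjusted p = 0.11). Of the markers of other cells, the 5 synergid genes summed to 0 to 602 FPKM in Zy14, with the high value in replicate 1, and to 54.6, 3.44 and 287 FPKM in EC. They summed to 6.41 to 9.02 FPKM in LZy14 and 0 to 2.98 in CZy14. Without EC replicate 3, the library with 287 FPKM, 185 loci met the rule. The 7 seed coat and integument genes summed to at most 4.21 FPKM in the zygotes at 14 hours, and the 11 central cell and endosperm genes to 14.4 to 58.1 FPKM at 14 hours in all zygotes. The 8 sperm and pollen genes summed to 18.9 to 31.9 FPKM in LZy14 and 4.77 to 12.2 in CZy14. The part of these lists in the members' levels was not tested.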

How the data were processed

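RNA was measured in 27 libraries of 9 groups. The authors deposited 1 table of FPKM per library, made with TopHat2 and RSEM on TAIR10, per the submitters' processing notes; versions are not given in the sources used here. Per the labels' protocols, mRNA was captured on beads and amplified with the SMART-Seq v4 kit. Loci absent from a table were taken as 0. The members and lists were chosen with earlier results of these data known. FPKM was turned to log2(FPKM + 1), and loci with at least 1 FPKM in 3 of 18 libraries were fitted with limma 3.58.1 (R 4.3.3), with 6 groups sharing 1 spread and Benjamini-Hochberg adjustment over all loci in each of 6 contrasts. Calls needed adjusted p below 0.05 and a log2 change of 1 or more in size. No test used EC, Zy14 or Zy24, which chose the members. On simulated data the fit recovered 169 of 200 changed loci, with 8 false calls. These counts describe the simulated loci only and are not the error rate of the calls reported here. How they carry over to members listed at 0 in a whole group was not tested.

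Tables were joined by locus tag to RefSeq TAIR10.1 for symbols, product descriptions, exons and promoters, in Python 3.11.15 with pandas 2.3.3 and numpy 2.4.6. Some family search words and the E2F motif were corrected after a first look at the matches. Genes named in the text were the 15 highest members in Zy14, up to 5 called members in each direction of each contrast, the 5 highest in 1C and in 32C, some members of a list or family, and loci nearest the thresholds. One called gene that this rule picks, and several family members, are not reported here. ARL, AOX1D, CBL6 and PUB22 were named after their values were seen. One fragment per kilobase stood for 0.0435 to 0.0895 FPKM, estimated from the lowest values, and FPKM sums were 746880 to 940207. Same-numbered libraries did not deviate together, with correlations of -0.025 to 0.0671, and the main fit did not pair them. Whether they shared a collection day or preparation cannot be told from these correlations. Alternatives were other pseudocounts, filters, scalings and limits, a replicate block and libraries left out. The fit without LZy14 replicate 3 and with CZy14 replicates 1 and 2 averaged was chosen after seeing the data, as were the counts over members that pass the filter without the 14 hour hybrids or in the embryo libraries alone.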

Additional observations from a re-analysis of the deposited data

Results flagged for a closer look

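For 10 members shown here, of 49 called, the difference between the crosses changed between 14 and 24 hours by a limma test of that change itself, LZy24 minus LZy14 less CZy24 minus CZy14. The change was higher for AT1G69660 (6.82), ACS6 (4.78), SYTD (4.59), AT-HSFA7B (4.26) and AT1G49650 (4.21), on the log2 scale. It was lower for AT3G19310 (-5.01), PCAP1 (-4.76), PIP3 (-4.64), SCL5 (-4.48) and AT4G14315 (-3.30). These are the 5 largest called changes in each direction. PCAP1 could not be tested without LZy14 replicate 3. AT1G48700 moved in opposite directions in every library, with 23.7, 22.1 and 19.4 FPKM in LZy24, against 9.17, 17.6 and 13.2 in LZy14, and with 6.35, 16.4 and 15.1 FPKM in CZy24, against 20.1, 17.8 and 72.9 in CZy14. Its change of 1.98 ± 0.89 (SE, log2) had an adjusted p of 0.0993 by limma and was not called.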

How the results depend on the processing

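Of 58 values of named genes, recomputed in 909 alternatives, 847 kept their call, 62 lost it and 0 turned direction. Only 42 of the 58 values kept their call in every alternative that tested them. Alternatives in which a gene fell out of the filter, as PCAP1 did without LZy14 replicate 3, are not among the 909. Members called in LZy14 against CZy14 numbered 51, but 22 when no other groups were fitted and 31 in the fit chosen after seeing the data, and in LZy24 against CZy24 31, but 11 with a pseudocount of 5. With a high limit of 10 FPKM 67 loci met the rule, and leaving out 1 library gave 141 to 276. Leaving out 1 library gave 89 to 101 calls in LZy24 against LZy14, 108 to 116 in CZy24 against CZy14, 41 to 54 in LZy14 against CZy14, 21 to 39 in LZy24 against CZy24, 41 to 49 for the change of that difference and 23 to 29 in 32C against 1C. Present members depended on the level asked for: 31 in 1C, 13 in LZy24 and 16 in CZy24 at 2 FPKM, and 9 in 1C, 17 in 32C, 2 in LZy24, 35 in LZy14 and 3 in CZy24 at 10 FPKM. The cause of these shifts was not tested. With a replicate block, 99 members were lower and 4 higher in LZy, 114 and 4 in CZy, 44 and 5 between the crosses at 14 hours, 20 and 12 at 24 hours, 10 and 37 for the change, and 8 lower and 22 higher in 32C. With 3 libraries a group, small differences may not be detected.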
